A study of Mus musculus with 4 samples.

Results

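Sox9, Nes, Vim, Hes1, Sox2 and Olig2 are 6 genes that mark stem-like, progenitor or glial cells, and their transcripts were followed in single cells of 4 mouse medulloblastomas. They were chosen by name and are 6 of the 15002 genes in the tables. The mice, untreated and 16 days old, all carried hGFAP-Cre and SmoM2 together with floxed alleles of both AMPK genes (Prkaa1fl/fl and Prkaa2fl/fl). SmoM2 is an activated allele of Smoothened that switches on Sonic hedgehog signalling, and Prkaa1 and Prkaa2 encode alternative catalytic subunits of the energy sensor AMPK (AMP-activated protein kinase). Both the SmoM2 allele and the deletion depend on hGFAP-Cre, in which a human GFAP promoter drives the recombinase in neural stem and progenitor cells of the developing brain, so vessel, meningeal and immune cells of the tumours lie outside the targeted lineage. The study also names tumours with intact Prkaa1 and Prkaa2, but the 4 labelled samples all carry the deletion, and a comparison of genotypes was not analysed here. The transcripts were counted by Drop-seq, which captures 1 cell with 1 barcoded bead in a droplet and counts the 3′ ends of its transcripts as unique molecular identifiers (UMIs).

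Medulloblastomas driven by hedgehog signalling arise from cerebellar granule neuron progenitors, which divide while the pathway is active and then differentiate into granule neurons. Sox9, Sox2, Hes1 and Olig2 encode transcription factors and Nes and Vim encode intermediate filaments. Sox2 and Sox9 are high mobility group factors of neural stem cells, and Sox9 also directs glial fate. Hes1 is a repressor of the basic helix-loop-helix class that Notch signalling induces and that holds back neuronal differentiation. Olig2 is a factor of the same class that sets the oligodendrocyte lineage. Nestin (Nes) is the filament of neural progenitors and of growing vessels, and vimentin (Vim) is that of immature glia, endothelium and mesenchyme.

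The 6 genes are protein coding and on the plus strand in GENCODE M21 (GRCm38, the same assembly as mm10). Sox9 lies on chromosome 11 from 112782224 to 112787760, Nes on chromosome 3 from 87971078 to 87980451 and Vim on chromosome 2 from 13573927 to 13582826. Hes1 lies on chromosome 16 from 30064384 to 30067796, Sox2 on chromosome 3 from 34650405 to 34652461 and Olig2 on chromosome 16 from 91225457 to 91228677. The RefSeq promoter table (GRCm38.p6) held 4 of the 6 (Nes, Vim, Sox2 and Olig2). The Nes stretch, shown because Nes was one of the genes that rose with hedgehog transcripts below, covers the 235 bases before the annotated gene (chr3:87970843-87971077, plus strand):
Nes: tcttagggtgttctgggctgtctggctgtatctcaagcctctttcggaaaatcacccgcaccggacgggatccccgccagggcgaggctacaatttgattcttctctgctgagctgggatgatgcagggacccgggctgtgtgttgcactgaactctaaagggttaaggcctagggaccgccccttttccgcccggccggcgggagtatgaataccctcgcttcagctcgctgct
Over the 250 bases before each RefSeq start, 3 motifs were searched on both strands. These were GACCACCCA for GLI factors, TGGGAA for the core of the Notch effector RBPJ and CACNAG for the N box of HES proteins. Neither GACCACCCA nor TGGGAA was in any of the 4 windows. CACNAG stood once in the Vim window, 228 bases before the RefSeq start, and in none of the others. The Vim window (chr2:13574061-13574310) lies inside the annotated gene, so this motif is downstream of the GENCODE gene start given above. Of 32851 promoter windows of the same length, 0.225% held GACCACCCA, 21.6% held TGGGAA and 36.7% held CACNAG.

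Of 6734 barcodes, 3222 had at least 500 UMIs and were used as cells, with 766, 807, 566 and 1083 in tumours 1 to 4. Their median depth was 826.5, 749, 806.5 and 972 UMIs. No barcode was shared between the libraries. Tumours 1 and 2 stood apart in the mitochondrial share of UMIs, which was 12.1% and 12.7% against 2.68% in tumour 3 and 2.13% in tumour 4. Markers of granule lineage identity were present in every tumour, with Zic1 between 992 and 1096 and Neurod1 between 1211 and 1431 CPM (a gene's UMIs divided by all UMIs of the library's cells, in parts per 1e6). Gfap was at 0 CPM in tumour 1 and at most 9.57 CPM in the others. Prkaa1 had 16, 4, 3 and 5 UMIs and Prkaa2 10, 5, 10 and 14. With no intact tumour these give nothing to compare with, and UMIs taken at the 3′ end leave the loss of floxed exons unchecked.

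All 6 genes were seen in every tumour, but at low counts and in few cells. To put cells of unequal depth on one footing, each cell was thinned at random to 500 UMIs. After thinning, 443 cells carried a UMI of at least 1 of the 6 genes. Their share was 11.1%, 10.4%, 14.1% and 17.9% by tumour (mean 13.4% ± 3.42, SD, n = 4). Of these, 397 carried 1 of the genes, 42 carried 2 and 4 carried 3 or more. Most positive cells held a single UMI. Unthinned, Sox9 had 2 or more UMIs in 23.5% of its positive cells and Vim in 17.4%.

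Sox9 differed between the same pairs of tumours as the mitochondrial share. It had 64, 45, 85 and 265 UMIs in tumours 1 to 4, which is 83.5, 62.2, 161 and 211 CPM. The exact 95% Poisson intervals (64.3 to 107 and 45.4 to 83.2 CPM in tumours 1 and 2, 128 to 199 and 187 to 238 CPM in tumours 3 and 4) did not overlap between these pairs of tumours. They overlapped within each pair. These and all other such intervals cover counting error only. The share of thinned cells with a Sox9 UMI was 3.13%, 1.73%, 6.36% and 7.76%, and 5.61%, 4.46%, 11.5% and 16.9% unthinned. With mitochondrial features left out before thinning, the shares were 3.18%, 2.33%, 6.40% and 7.92%. The labels give no age, treatment or genotype that differs between the pairs, and the part of library quality in this difference was not tested.

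Hes1 was highest in tumour 4. It had 36, 26, 29 and 158 UMIs, or 47.0, 35.9, 54.8 and 126 CPM, and the interval of tumour 4 (107 to 147 CPM) lay above those of the others, which overlapped one another. After thinning, 1.57%, 1.49%, 2.65% and 4.80% of cells were positive. Olig2 was also highest in tumour 4, at lower counts. Its 5, 6, 9 and 39 UMIs were 6.53, 8.29, 17.0 and 31.1 CPM, and the interval of tumour 4 (22.1 to 42.5 CPM) overlapped that of tumour 3 (7.78 to 32.3 CPM). The share of thinned cells with an Olig2 UMI was 0.131%, 0.248%, 0.177% and 1.20%.

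Vim, Nes and Sox2 differed less between tumours. Vim had 86, 63, 50 and 107 UMIs (112, 87.1, 94.5 and 85.4 CPM), with all 4 intervals overlapping. One cell of tumour 1 held 17 of its 86 UMIs, and without that cell tumour 1 stood at 91.4 CPM. Vim-positive cells made up 3.66%, 4.21%, 4.06% and 3.97% of thinned cells, a mean of 3.98% ± 0.236 (SD, n = 4). Nes had 68, 48, 32 and 72 UMIs (88.7, 66.3, 60.5 and 57.4 CPM), with a mean share of 2.31% ± 0.445 (SD, n = 4), and its intervals overlapped as well. Sox2 had 18, 18, 8 and 33 UMIs, or 23.5, 24.9, 15.1 and 26.3 CPM, and 0.72% ± 0.158 (SD, n = 4) of thinned cells were positive. The 4 tumours are 1 group, so no test between them was made. A lower value may be fewer positive cells or less RNA in each, which these counts cannot tell apart.

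**Figure D1:**
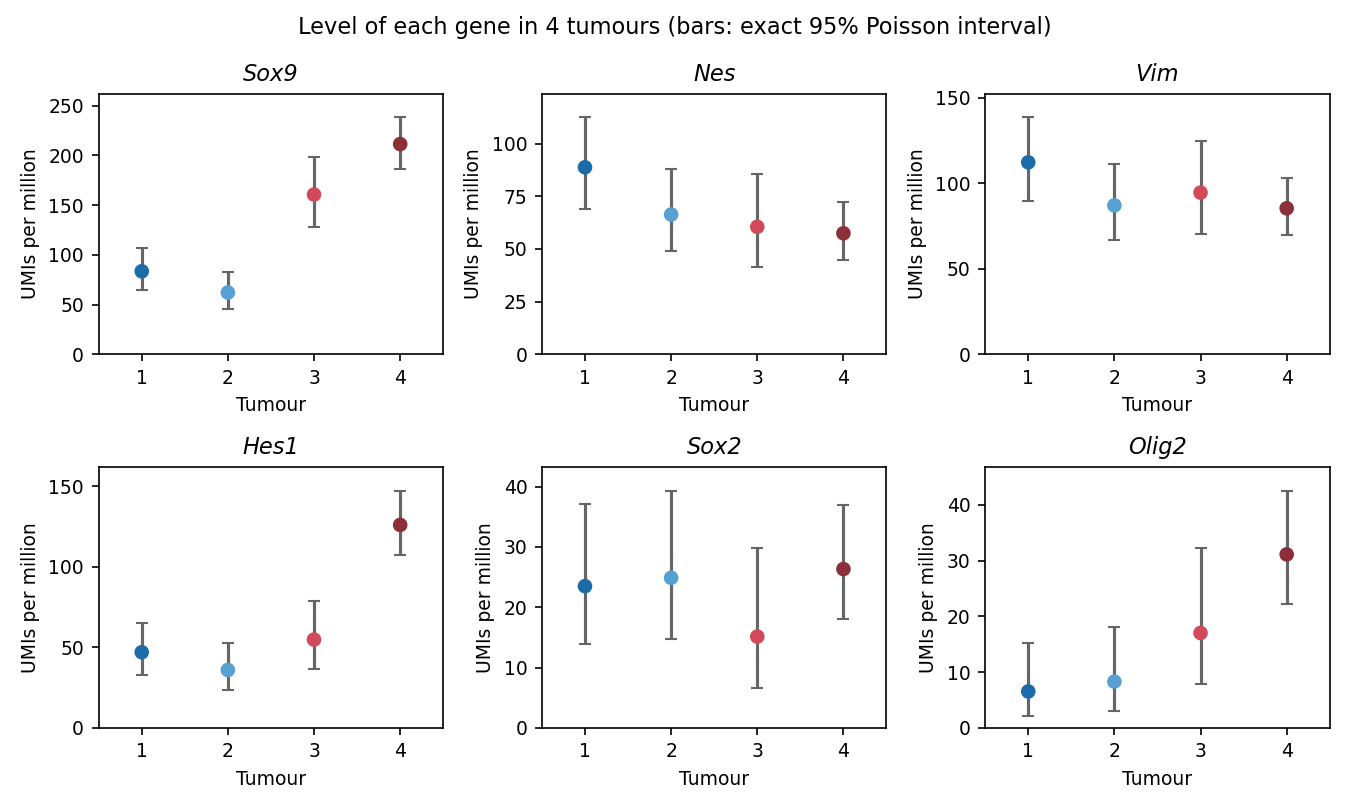
CPM (vertical axis) of each gene in tumours 1 to 4 (horizontal axis), 1 point per tumour with its exact 95% Poisson interval. Sox9 is higher in tumours 3 and 4 than in tumours 1 and 2, Hes1 is highest in tumour 4, and Vim and Nes have overlapping intervals.

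Part of the signal came from cells of other types. Cells were put in a class when they held UMIs of at least 3 markers of it, which named 54 oligodendrocyte-like, 31 astrocyte or radial glia-like, 27 microglia or macrophage-like, 20 endothelial-like and 7 mural or fibroblast-like cells. Another 2 cells had equal marker counts in 2 classes, and 3081 cells had no class. Values by class pool the 4 tumours and rest on few cells.

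Nes was concentrated in endothelial-like cells. These 20 cells were 0.621% of all cells and held 1.19% of all UMIs but 12.7% of Nes UMIs. Nes stood there at 719 CPM (exact 95% interval 478 to 1039) against 56.5 CPM (48.4 to 65.7) in cells with no class, and 8 of the 20 had a Nes UMI after thinning. By tumour the endothelial-like cells held Nes at 356, 1105, 828 and 495 CPM, from 4, 15, 5 and 4 UMIs. Their median depth was 1597 UMIs against 825. The same cells held Vim at 539 CPM (334 to 825) and Hes1 at 385 CPM (216 to 636), against 80.9 and 72.3 CPM in cells with no class, again with no overlap of the intervals. Sox9 did not share this: it had 1 UMI in the 20 endothelial-like cells.

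Vim was also high in astrocyte or radial glia-like cells, at 438 CPM (283 to 646), but 17 of the 25 UMIs there came from the single cell of tumour 1 named above. That cell also held 9 of the 14 Sox9 and 5 of the 11 Sox2 UMIs of the class. Without it Vim stood there at 175 CPM (75.4 to 344), which overlaps the interval in cells with no class. Oligodendrocyte-like and astrocyte or radial glia-like cells held 13.0% and 14.3% of Sox2 UMIs and 15.3% and 8.47% of Olig2 UMIs, against 2.57% and 1.74% of all UMIs. Sox2 reached 119 CPM (57.1 to 219) and 193 CPM (96.2 to 345) in these classes against 18.1 CPM (13.6 to 23.5) in cells with no class. The astrocyte or radial glia-like value was 131 CPM (48.0 to 285) without the cell named above and 83.7 CPM (10.1 to 302) without tumour 1, from 2 UMIs, so that without tumour 1 the interval overlaps that of cells with no class. Olig2 reached 107 CPM (49.0 to 203) from 9 UMIs and 87.6 CPM (28.4 to 204) from 5 UMIs in these classes, against 14.8 CPM (10.8 to 19.8). For Sox9 the 245 CPM (134 to 411) in astrocyte or radial glia-like cells overlapped the 143 CPM (130 to 157) in cells with no class, and it was 109 CPM (35.4 to 255) without that cell. Of its 459 UMIs, 434 came from cells with no class.

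Microglia or macrophage-like cells, which should lack the neural factors, gave a check on free RNA. Sox9, Sox2 and Olig2 were seen in 0 of 27 such cells, and a count of 0 still permits a share of up to 11.1%. Their median depth was 1196 UMIs. This limit is above the shares in cells with no class (5.03%, 0.584% and 0.422% after thinning), so shares of so few cells set no background. By level, the 54 microglia or macrophage-like, endothelial-like and mural or fibroblast-like cells together held 1 Sox9 UMI, or 11.4 CPM (0.288 to 63.5), below the 143 CPM (130 to 157) in cells with no class. For Sox2, also with 1 UMI in these 54 cells, the interval of 0.288 to 63.5 CPM overlaps the 18.1 CPM in cells with no class, and Olig2 had 0 UMIs there, so for these genes no background could be set. Vim, which microglia also express, was seen in 2 of the 27 after thinning.

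**Figure D2:**
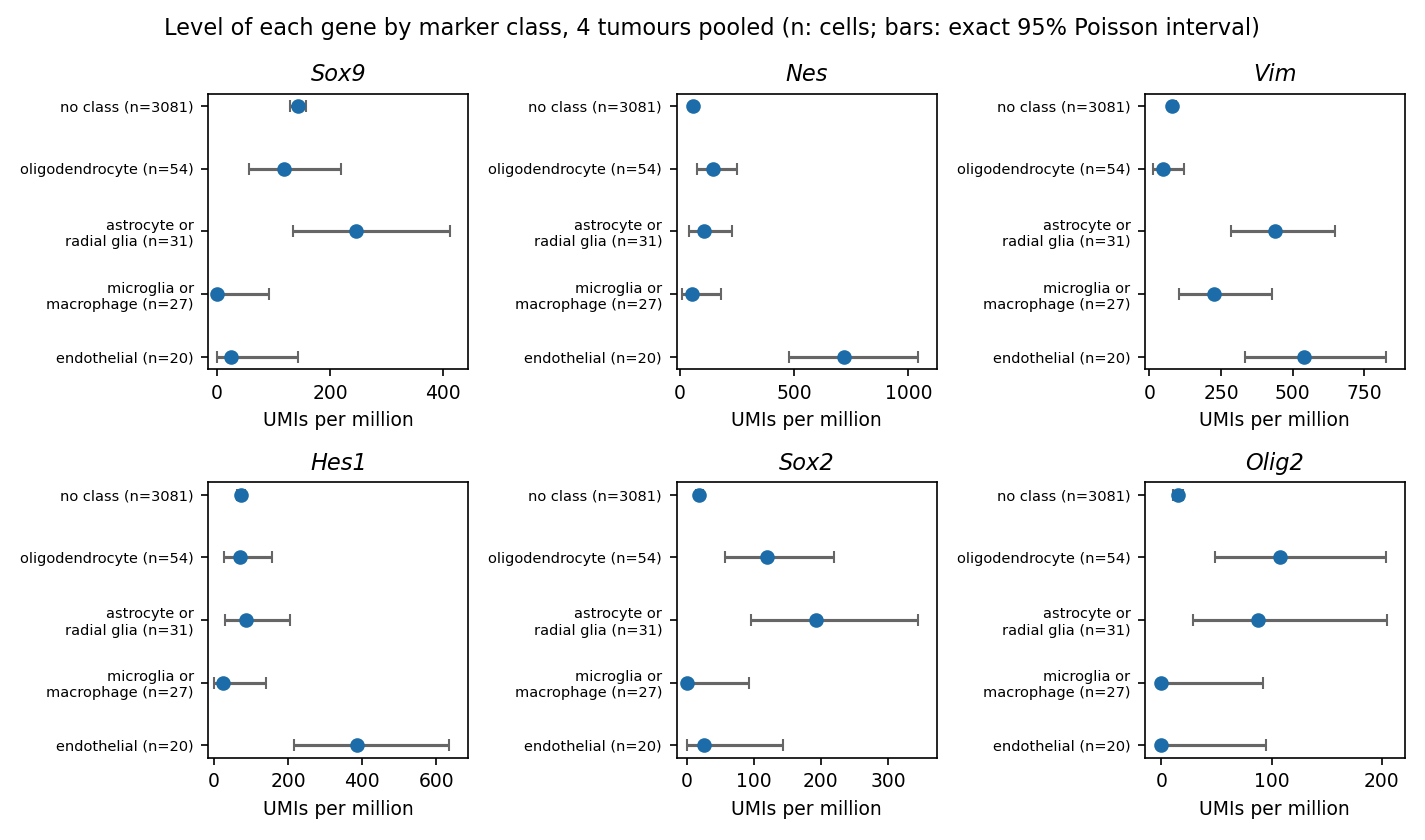
CPM (horizontal axis) of each gene in cells with no marker class and in 4 marker classes (vertical axis, n is the number of cells), pooled over 4 tumours, with exact 95% Poisson intervals. Nes, Vim and Hes1 are highest in endothelial-like cells, and Sox2 and Olig2 are higher in both glial classes than in cells with no class (for Sox2 in the astrocyte or radial glia-like class, with overlapping intervals once tumour 1 is left out). The Olig2 value of the astrocyte or radial glia-like class rests on 5 UMIs.

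Few cells were positive for more than 1 of the genes after thinning. Of the 15 pairs, Sox9 with Hes1 and Nes with Hes1 were seen together after thinning in more cells than their shares within each tumour predict, by an interval that left out 1. Sox9 and Hes1 shared 13 cells against 5.57 predicted, a ratio of 2.33 (exact 95% Poisson interval of the observed count, 1.24 to 3.99), in 2 of 4 tumours above prediction. Nes and Hes1 shared 7 cells against 2.01, a ratio of 3.48 (1.40 to 7.18), in 4 of 4. Sox9 and Vim shared 5 cells against 6.27 predicted. Sox2 shared no thinned cell with Nes, Vim or Hes1, where 0.566, 0.957 and 0.694 cells were predicted. These counts include microglia or macrophage-like, endothelial-like and mural or fibroblast-like cells. With those classes left out, Hes1 was at 0 CPM in the Nes-positive cells of tumours 2 and 3. The 2 and 1 cells that shared Nes and Hes1 there were thus all of the left-out classes. Without thinning, when cells of unequal depth are mixed, the interval lay above 1 for 12 of the 15 pairs.

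The next question was whether the 6 genes moved with hedgehog transcripts, with the cell cycle and with granule neuron differentiation. For each, cells were split by the thinned UMIs of a gene list that holds none of the 6 genes, and counts of each class were summed per tumour. The sums were compared with edgeR's quasi-likelihood test with the tumour as a block, so that each tumour gives 1 difference, and p-values were adjusted over all genes tested (Benjamini-Hochberg, threshold 0.05). The 54 microglial, endothelial and mural or fibroblast cells were left out, which kept 3168 cells. The classes are broad and overlap: 67.0% of cells had at least 2 cell-cycle UMIs, 60.6% at least 1 hedgehog UMI and 63.3% at least 2 granule neuron UMIs, and 37.0% met both the cell-cycle and the neuron limit. Free RNA can place UMIs of abundant genes in other cells, and its part in the classes was not tested. The cell of tumour 1 with 17 Vim, 9 Sox9 and 5 Sox2 UMIs had 0 thinned UMIs of each list and so counts among the cells with none in all 3 comparisons. Values without it, a choice made after the data were seen, are given beside the results it moves.

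Hes1 and Nes were about 2-fold higher in cells with a hedgehog UMI. The hedgehog list held 8 genes of the pathway and its targets, and Sfrp1 gave 63.2% of its thinned UMIs, Ccnd1 13.0%, Mycn 12.7% and Gli1 4.31%. Hes1 stood at 56.3, 28.7, 67.3 and 152 CPM in hedgehog-positive cells of tumours 1 to 4 and at 20.2, 29.5, 20.6 and 75.8 CPM in cells without a hedgehog UMI. The positive cells were higher in 3 of 4 tumours and level in tumour 2, and the classes overlap across tumours because tumour 4 is high in both. The log2 fold change was 1.0 (SE 0.26, adjusted p = 0.0119 by edgeR). Nes stood at 110, 55.1, 76.5 and 62.7 CPM against 60.7, 25.3, 10.3 and 40.3 CPM, higher in 4 of 4 tumours, with a log2 fold change of 0.98 (SE 0.27, adjusted p = 0.0189 by edgeR). The value of tumour 3 without a hedgehog UMI rests on 2 UMIs.

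These 2 of the 6 genes were called higher and none lower, where 1.31% of the 9547 genes outside the list were called higher and 4.54% in either direction. The median log2 fold change of the 6 genes was 0.72, against -0.02 over all tested genes. Sox9 (0.46, SE 0.18, adjusted p = 0.143 by edgeR) and Olig2 (1.0, SE 0.53, adjusted p = 0.372) were not called, nor were Sox2 (-0.30, SE 0.37) and Vim (-0.45, SE 0.21). Vim stayed below 0 in 19 of 19 alternatives and was called lower in 2, without tumour 3 (-0.68, adjusted p = 0.0493 by edgeR) and without Sfrp1 in the list (-0.85, adjusted p = 0.0216). Sox9 differed by library pair. In tumours 3 and 4 alone its log2 fold change was 0.66 (adjusted p = 0.0377 by edgeR), and in tumours 1 and 2 alone it was -0.05 (adjusted p = 0.978), and the difference between the pairs was not tested. Without the cell of tumour 1 with 17 Vim UMIs, Sox9 was at 0.56 (SE 0.18) and passed (adjusted p = 0.0483 by edgeR), which makes 3 of the 6 genes, and Vim and Sox2 were at -0.27 and -0.087. For Sox9 the adjusted p ranged from 0.0305 to 1.0 over 19 alternatives, and it passed in 3.

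Both calls depended on how the classes were made. Over 19 alternatives the log2 fold change of Hes1 stayed above 0 (0.57 to 1.20) and was called in 12, with adjusted p from 0.00142 to 1.0, and that of Nes stayed above 0 (0.48 to 1.28) and was called in 9, with adjusted p from 0.00446 to 1.0. DESeq2 gave neither an adjusted p. Without Ccnd1 and Mycn in the list, Hes1 fell to 0.57 (adjusted p = 0.232 by edgeR) and Nes to 0.60 (adjusted p = 0.190), and without Sfrp1 they were 0.60 (adjusted p = 0.231) and 0.85 (adjusted p = 0.0381). The call of Hes1 was lost without tumour 1 (adjusted p = 0.0775) and without tumour 4 (0.257), and that of Nes without tumour 1 (0.0622), 3 (0.104) or 4 (0.0763). With endothelial-like and other left-out cells included, Nes had a log2 fold change of 0.48 and was not called (adjusted p = 0.347 by edgeR). Without the tumour as a block, where tumours differ from one another within each class, neither was called and neither was any other gene outside the list.

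**Figure D3:**
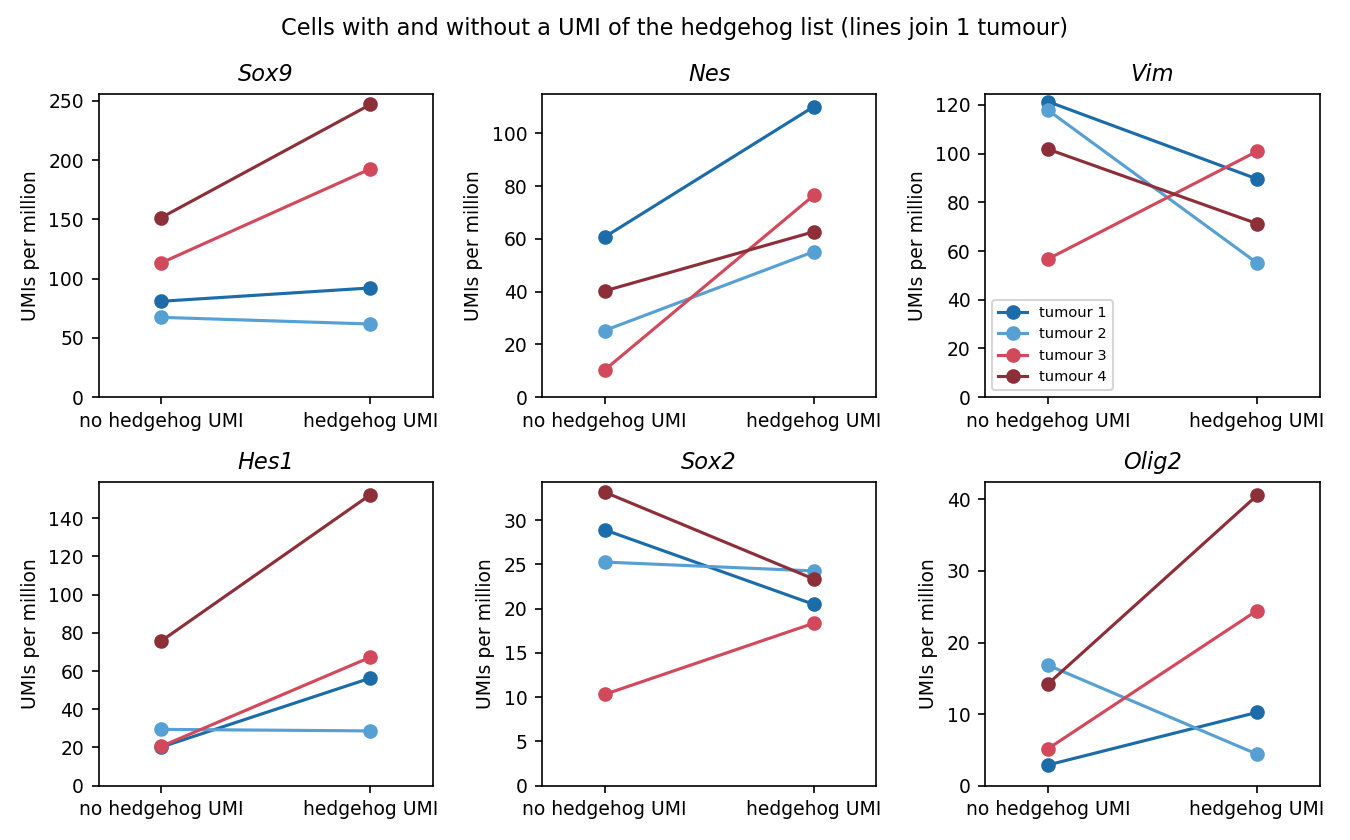
CPM (vertical axis) of each gene in cells without and with a UMI of the hedgehog list (horizontal axis), with a line for each of 4 tumours. Nes rises along all 4 lines and Hes1 along 3, whereas Sox9 rises mainly in tumours 3 and 4.

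Seen from the positive cells, 82.6% of 86 Hes1-positive cells (exact 95% binomial interval 72.9 to 89.9) also carried a hedgehog UMI, against 60.0% of 3082 Hes1-negative cells. The share was 80.0%, 80.0%, 85.7% and 82.7% in tumours 1 to 4, and above that of the negative cells in each. For Nes it was 74.2% of 66 cells (62.0 to 84.2) against 60.3%, and for Sox9 70.9% of 158 cells (63.1 to 77.8) against 60.1%, each higher in 4 of 4 tumours. Vim showed no such excess, with 57.5% of 120 cells (48.1 to 66.5) against 60.7%. These shares restate the same cells and were not tested.

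Other genes of the fixed lists moved with hedgehog UMIs. Of the 12 tested Notch pathway genes 1 was called, the ligand gene Jag1, which was higher by a log2 fold change of 1.12 with an SE of 0.33 (adjusted p = 0.0352 by edgeR). Of the 15 tested stem or glial genes, Nfib, a factor of maturing granule cells, was lower by a log2 fold change of -0.28 (SE 0.07, adjusted p = 0.00601), and no other was called. Among cell-cycle genes, 7 of 29 G2/M and 7 of 24 S-phase genes rose, with Mki67 at 0.57 (SE 0.08) and the replication gene Clspn at 0.93 (SE 0.16). Among granule neuron genes, 12 of 15 fell, with Stmn2, a microtubule regulator of growing axons, at -0.90 (SE 0.095). Summed astrocyte or radial glia markers (all 12 detected in both classes) were 719, 765, 303 and 428 CPM in hedgehog-positive cells of tumours 1 to 4. In cells without a hedgehog UMI they were 1130, 1061, 283 and 554 CPM, so hedgehog-positive cells were lower in all but tumour 3. Endothelial markers ranged from 39.8 to 64.0 CPM in hedgehog-positive cells (12 of 14 detected) and from 40.5 to 109 CPM in the others (11 of 14). Oligodendrocyte markers (all 12 detected in both classes) stood at 545, 853, 2187 and 533 CPM in hedgehog-positive cells of tumours 1 to 4 and at 676, 2829, 1634 and 2605 CPM in the others, lower in 3 of 4 tumours. The median depth was 846, 750.5, 872 and 977 UMIs in hedgehog-positive cells and 796, 731.5, 727 and 942 UMIs in the others. The part of these markers and of depth in the changes of Hes1 and Nes was not tested.

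None of the 6 genes was called with the cell cycle. Cells with at least 2 UMIs of 53 S and G2/M genes were compared with cells with none, and 0 of the 6 were called where 12.3% of the 9064 genes outside the lists were. Over all of these genes, 2079 had an unadjusted p under 0.05. Sox9 had a log2 fold change of 0.36 (SE 0.26, adjusted p = 0.441 by edgeR), with 87.6, 64.2, 189 and 224 CPM in cycling cells and 91.8, 51.5, 82.1 and 189 CPM in the others. Cycling cells were higher in 3 of 4 tumours, and the classes overlap. The exception was tumour 1, where 9 of the 12 Sox9 UMIs outside the cycling class came from the cell named above. Without that cell the value there was 25.1 CPM, cycling cells were higher in 4 of 4 tumours, and edgeR gave a log2 fold change of 0.64 with an SE of 0.27 (adjusted p = 0.0945). Nes was at 0.35 (SE 0.37), Hes1 at -0.23 (SE 0.34) and Olig2 at -0.02 (SE 0.84), which turned to 0.019 when scaled by library size alone and to 0.086 with scaling factors from all tested genes, and to 0.0022 without that cell. Their SEs leave room for a change of either sign.

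The values of Vim and Sox2, neither of which passed, rested in part on the same cell. Vim stood at 85.5, 81.2, 76.7 and 77.8 CPM in cycling cells and at 245, 38.6, 100 and 117 CPM in the others, lower in 3 of 4 tumours, with a log2 fold change of -0.72 (SE 0.28, adjusted p = 0.0778 by edgeR). Of the 32 Vim UMIs behind the 245 CPM of tumour 1, 17 came from that cell. Without it the value was 126 CPM and edgeR gave -0.38 (SE 0.29, adjusted p = 0.457). Over 20 alternatives it stayed below 0 (-1.06 to -0.04), with adjusted p from 0.00402 to 0.948. It was called in 3, without tumour 2 (adjusted p = 0.0181 by edgeR), with all cells kept (0.00458) and by S-phase genes. When S-phase genes alone set the classes it was at -0.95 (SE 0.23, adjusted p = 0.00402 by edgeR), and with G2/M genes alone it was at -0.04 (SE 0.23, adjusted p = 0.948). Without tumour 1 it was -0.36 (adjusted p = 0.601). Sox2 stood at 12.5, 18.9, 17.7 and 28.9 CPM in cycling cells and at 91.8, 51.5, 0 and 22.2 CPM in the others, lower in 2 of 4 tumours, with 48 UMIs in cycling and 20 in other cells. By edgeR it was at -1.0 (SE 0.53, adjusted p = 0.244), and -0.68 (SE 0.53, adjusted p = 0.473) without the same cell, which held 5 of the 12 Sox2 UMIs outside the cycling class in tumour 1. Sox2 was called in 1 of 20 alternatives, tumours 1 and 2 alone (-2.40, adjusted p = 0.0255), and was above 0 in tumours 3 and 4 alone (0.65, adjusted p = 0.665). Pooled over tumours, 73.4% (65.8 to 80.1) of 158 Sox9-positive cells were in the cycling class against 66.7% of Sox9-negative cells, and the share was higher in 4 of 4 tumours. For 120 Vim-positive cells it was 61.7% (52.4 to 70.4) against 67.3%, and higher in 1 of 4 tumours.

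In the same contrast 4 of 8 hedgehog genes rose (Ccnd1, Gli1, Mycn and Sfrp1), with Gli1, the pathway's transcription factor and target, at 1.64 (SE 0.33). All 15 tested granule neuron genes fell, with the adhesion gene Cntn2 at -1.92 (SE 0.17). Of 11 tested Notch pathway genes 1 was called, again Jag1, which was higher in 3 of 4 tumours (1.79, SE 0.62, adjusted p = 0.0411 by edgeR), with 6 UMIs outside the cycling class. Of 14 tested stem or glial genes 5 fell and none rose. They were Id2 (-0.86, SE 0.19), Msi2 (-0.92, SE 0.18), Pax6 (-0.60, SE 0.18), Ptprz1 (-1.71, SE 0.43) and Sox5 (-1.22, SE 0.27), each called by edgeR. Summed oligodendrocyte markers were 555, 1016, 460 and 619 CPM in cycling cells of tumours 1 to 4 and 673, 1557, 7299 and 4717 CPM in the others. Summed astrocyte or radial glia markers were 638, 793, 275 and 404 CPM against 1798, 1158, 301 and 699 CPM. Both were lower in cycling cells in every tumour, with all 12 genes of each list detected in both classes. Their part in the values of Vim and Sox2 was not tested.

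Hes1 was lower in cells with granule neuron transcripts. Cells with at least 2 UMIs of 16 neuron genes were compared with cells with none. Hes1 stood at 39.2, 24.0, 27.8 and 90.4 CPM in neuron-positive cells and at 28.0, 59.4, 107 and 173 CPM in the others, lower in 3 of 4 tumours, with a log2 fold change of -0.99 (SE 0.31, adjusted p = 0.0486 by edgeR). The values of tumours 1 and 2 without neuron UMIs rest on 3 and 5 UMIs. Hes1 stayed below 0 in 18 of 18 alternatives (-2.84 to -0.60) and was called in 9, with adjusted p from 9.62e-05 to 0.801. It was not called without tumour 2, 3 or 4 (adjusted p = 0.130, 0.263 and 0.281), without the tumour as a block (0.690), with Scrublet doublets removed (0.0521), by DESeq2 (0.326), at a limit of 1 neuron UMI (0.189), in tumours 1 and 2 alone (0.801) or in tumours 3 and 4 alone (0.0748).

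Sox9 stood at 68.7, 50.1, 156 and 173 CPM in neuron-positive cells and at 121, 95.0, 170 and 303 CPM in the others. Neuron-positive cells were lower in 4 of 4 tumours, but in tumour 1 the direction rests on 1 cell, the one named above, which held 9 of the 13 Sox9 UMIs behind the 121 CPM. Without it that value was 41.6 CPM and neuron-positive cells were lower in 3 of 4 tumours. The log2 fold change of -0.67 (SE 0.22, adjusted p = 0.0637 by edgeR) did not pass, and without the cell it was -0.47 (SE 0.23, adjusted p = 0.233). It ranged from -1.53 to -0.44 over 18 alternatives, with adjusted p from 0.000309 to 0.814. Sox2 (-1.29, SE 0.50, adjusted p = 0.128), Vim (-0.56, SE 0.29, adjusted p = 0.313) and Nes (-0.51, SE 0.34, adjusted p = 0.472) were not called, and Olig2 was at 0.12 (SE 0.69). Without the same cell Sox2 was at -0.96 and Vim at -0.12. Sox2 was called under the stricter cell filter (adjusted p = 0.0449 by edgeR), Vim with all cells kept (0.0255) and Sox9 without tumour 3 (0.0375). So 1 of the 6 genes was called lower, where 2.06% of 8862 genes were called lower and 5.89% in either direction. The median log2 fold change of the 6 genes was -0.62, against 0.02 over all tested genes. With the stricter limit of at least 5 neuron UMIs, chosen after the data were seen, Hes1 was at -2.84, Sox2 at -2.49, Nes at -1.57 and Sox9 at -1.53, and all 4 were called (adjusted p from 9.62e-05 to 0.0185 by edgeR).

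Of the other lists, 13 of 29 G2/M genes, 5 of 24 S-phase genes and 2 of 8 hedgehog genes (Ccnd1 at -0.78, SE 0.16, and Gli1 at -0.88, SE 0.25) were lower with neuron transcripts. Nfib (0.56, SE 0.11) and Pax6 (0.78, SE 0.16), both factors of the granule lineage, were higher, and no other stem or glial gene and none of 11 Notch pathway genes was called. Summed astrocyte or radial glia markers (all 12 detected in both) were 736, 813, 323 and 488 CPM in neuron-positive cells of tumours 1 to 4. In the others they were 1230, 1234, 215 and 527 CPM, so neuron-positive cells were lower in all but tumour 3. Endothelial markers were lower in neuron-positive cells in 4 of 4 tumours, at 49.0, 69.8, 45.2 and 43.7 CPM (13 of 14 detected) against 65.2, 83.1, 53.6 and 79.5 CPM (6 of 14). Oligodendrocyte markers (all 12 detected in both) stood at 655, 1199, 2464 and 543 CPM against 522, 890, 2351 and 2994 CPM, lower in tumour 4 alone. The part of these markers in the values of Hes1 and Sox9 was not tested. Pooled over tumours, 48.7% of Sox9-positive cells (40.7 to 56.8) and 41.9% of Hes1-positive cells (31.3 to 53.0) met the neuron limit, against 64.0% and 63.9% of negative cells. By tumour the Sox9 shares were 62.5%, 57.1%, 52.8% and 41.7% against 72.8%, 67.8%, 59.4% and 57.1%, lower in each. For Hes1 they were 60.0%, 70.0%, 28.6% and 36.5% against 72.7%, 67.6%, 59.7% and 56.9%, higher in tumour 2. Tumour 4 held 52 of the 86 Hes1-positive and 84 of the 158 Sox9-positive cells. These shares were not tested.

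**Figure D4:**
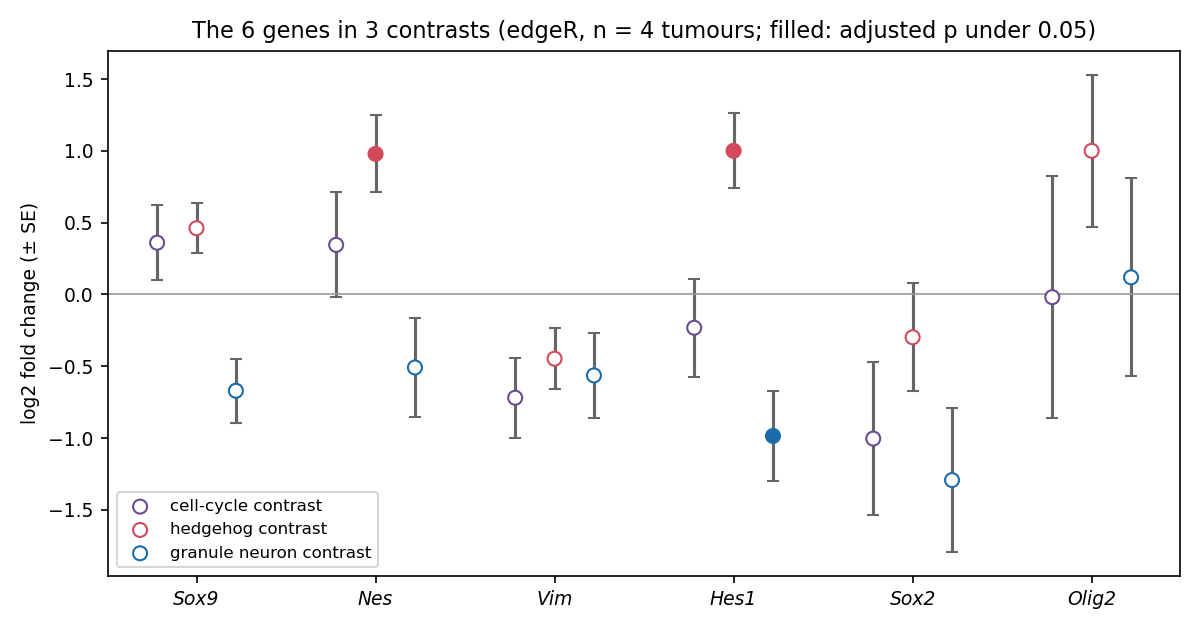
log2 fold change with its SE (vertical axis) of the 6 genes (horizontal axis) in cells with cell-cycle, hedgehog or granule neuron UMIs against cells with none, fitted by edgeR over 4 tumours. Filled points passed the threshold: Hes1 and Nes with hedgehog (1.0 and 0.98) and Hes1 with neuron transcripts (-0.99).

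Cells positive for a gene were then compared with all other cells for every transcript. Sox9, Hes1, Vim and Nes had at least 5 positive cells in each tumour and were compared in this way. Sox2 and Olig2 were not. The gene that sets the classes got no test. Genes are named here where they passed the threshold, averaged at least 50 CPM over the sums and moved the same way in 4 of 4 tumours.

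Sox9-positive cells held less Stmn2, Neurod1, Gap43 and Rtn1. Stmn2 was lower in the 158 cells (log2 fold change -1.37 with an SE of 0.22, adjusted p = 4.97e-07 by edgeR), with 258, 617, 396 and 194 CPM against 833, 1018, 679 and 687 CPM in tumours 1 to 4. Neurod1, a differentiation factor of granule neurons, was lower as well (-0.90, SE 0.16, adjusted p = 1.38e-05), with 1031, 849, 793 and 536 CPM against 1280, 1438, 1497 and 1294 CPM. For both genes all 4 positive sums lay below all 4 others. Gap43, a growth cone protein (-0.78, SE 0.18), and Rtn1, a neuronal reticulon (-0.79, SE 0.19), each had an adjusted p of 0.0224. Stmn2 and Gap43 were the 2 of 15 granule neuron genes called, while Map2 (-0.09, SE 0.17) and Tubb3 (-0.52, SE 0.20, adjusted p = 0.935) were not, and the median of the list was -0.54 against -0.04 over all genes. In all, 8 of 9554 genes (0.0837%) were called, none higher, and none of the 8 was another of the 6 genes. Gm16228, Sntg2 and Ttr, also among the calls and chosen for mention after their values were seen, did not move one way in all tumours, and 1 cell held 99.9% of Sntg2 UMIs. At an unadjusted p under 0.05 there were 477 genes. Without tumour 4 there were 5 calls. DESeq2 called 1 gene and the fit without the tumour as a block none. When unthinned UMIs set the positive cells, 69 genes were called, 34 higher and 35 lower, and in tumours 3 and 4 alone 13 were called, 3 of them higher.

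Hes1-positive cells also held fewer transcripts of several neuronal genes. In these 86 cells Neurod1 was at -1.67 (SE 0.27, adjusted p = 1.47e-06 by edgeR), with 990, 278, 229 and 397 CPM against 1274, 1439, 1480 and 1266 CPM. Tubb3, a neuronal tubulin, was at -1.88 (SE 0.38, adjusted p = 0.00125) and Map2, a dendritic microtubule protein, at -1.30 (SE 0.31, adjusted p = 0.0197). Podxl2, a sialomucin, was at -2.30 (SE 0.48, adjusted p = 0.00177), with 8 UMIs in the positive cells, and Zic1, a factor of the granule lineage, at -1.25 (SE 0.28, adjusted p = 0.00639). Stmn2 (-1.84, SE 0.37, adjusted p = 0.00072) was lower in 3 of 4 tumours, which made 3 of 15 granule neuron genes called. The proliferation marker Mki67, the 1 of 29 G2/M genes called, was at -0.93 (SE 0.22, adjusted p = 0.0120). Whether these differ from the values in Sox9-positive cells was not tested, and the 2 sets of cells overlap.

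Higher in Hes1-positive cells were Gpx8 (2.45, SE 0.58, adjusted p = 0.0154 by edgeR), a peroxidase of the endoplasmic reticulum, Col4a1 (2.26, SE 0.57, adjusted p = 0.0317), a basement membrane collagen, and Rps3a1 (1.0, SE 0.24, adjusted p = 0.0162), a ribosomal protein gene whose reads can be shared with near-identical copies. Gpx8 rests on 13 and Col4a1 on 14 UMIs in these cells. Col4a1 is also a vessel gene, and the endothelial-like cells had been left out. Of 14 endothelial markers 12 were at 0 in Hes1-positive cells, and their summed level was 0 to 108 CPM by tumour against 45.3 to 70.2 CPM in the other cells. Mural or fibroblast markers (9 of 12 at 0) stood at 0 to 139 against 24.6 to 74.1 CPM. Their part was not tested. In all, 18 genes (0.188%) were called, 7 higher and 11 lower, or 1 higher and 15 lower with scaling factors from all tested genes. The split turned to 31 higher and 16 lower with all cells kept and to 11 higher and 5 lower under the stricter cell filter. Without tumour 4, which holds 52 of the 86 cells, there were 4 calls, 1 higher and 3 lower. DESeq2 called 1 gene and the fit without the tumour as a block none. At an unadjusted p under 0.05 there were 602 genes with the block and 508 without it.

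Nes-positive cells had higher Sparcl1 and lower Neurod1. Sparcl1, a secreted matrix protein of glia and vessels, was at 490, 369, 363 and 799 CPM in the 66 positive cells and at 334, 184, 97.5 and 134 CPM in the others (log2 fold change 1.53 with an SE of 0.36, adjusted p = 0.0261 by edgeR). The classes did not overlap. Neurod1 was at -1.16 (SE 0.25, adjusted p = 0.00497), with 490, 590, 725 and 685 CPM against 1291, 1443, 1461 and 1239 CPM, and Tuba1a, a tubulin of growing neurons, at -0.75 (SE 0.17, adjusted p = 0.0135). Summed astrocyte or radial glia markers (9 of 12 detected) were 1253, 1032, 242 and 1712 CPM in Nes-positive cells of tumours 1 to 4. In other cells they were 904, 863, 296 and 444 CPM, so Nes-positive cells were higher in all but tumour 3. The part of these markers in the values above was not tested. In all 7 of 9554 genes (0.0733%) were called, 2 higher and 5 lower, against 37 higher and 8 lower with all cells kept. With scaling factors from all tested genes 63 were called, 62 of them lower, and the median over all genes moved from -0.12 to -0.74. Without tumour 2 there were 2 calls and without tumour 4 there were 3, all of them lower, so Sparcl1 was called in neither.

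In Vim-positive cells the calls rested largely on 1 cell. Neurod1 (0.21, SE 0.19) and Stmn2 (0.20, SE 0.22) were not called, and whether these values differ from those in the other positive cells was not tested. Of 21 called genes (0.22%), 16 were higher. Among those that averaged at least 50 CPM, Sparcl1 was the gene that moved the same way in every tumour (1.71, SE 0.29, adjusted p = 4.13e-06 by edgeR). The cell of tumour 1 with 17 Vim UMIs had 11261 UMIs and was classed as astrocyte or radial glia-like. It held 49 of the 51 Ccdc153 UMIs and 36 of the 70 Mt3 UMIs, 2 of the called genes, named after their values were seen. In 9 of the 21 called genes a single cell held over 50% of all UMIs. With scaling factors from all tested genes the split was 11 higher and 8 lower, and under the stricter cell filter it was 1 higher and 3 lower. Without this cell 10 genes were called, 3 higher and 7 lower, and Sparcl1 was at 0.86 (adjusted p = 0.981). Without tumour 1 there were 6 calls.

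In none of the 4 comparisons was another of the 6 genes called. Sox9 in Hes1-positive cells had a log2 fold change of 1.28 (SE 0.44, adjusted p = 0.417 by edgeR), with 0, 0, 535 and 542 CPM in the positive cells of tumours 1 to 4 against 87.8, 64.3, 154 and 199 CPM. It was thus higher in tumours 3 and 4 and unseen in the 10 positive cells of tumour 1 and the 10 of tumour 2. Vim in Hes1-positive cells was at 1.25 (SE 0.52, adjusted p = 0.742) and Nes in Sox9-positive cells at 1.1 (SE 0.44, adjusted p = 0.964). Sox2 had 0 UMIs in both the Hes1-positive and the Nes-positive cells, against 76 in the other cells of each comparison. The positive cells held few UMIs of any gene (8078, 7199, 13074 and 55372 by tumour for Hes1, 18350, 13566, 8275 and 26282 for Nes). Sox2 was at 15.8 to 28.0 CPM in the cells without Hes1, so these counts of 0 do not show that it was absent. Unthinned and over all cells, Sox2 shared 8 cells with Nes against 2.61 predicted, and 5 with Hes1 against 2.95.

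**Figure D5:**
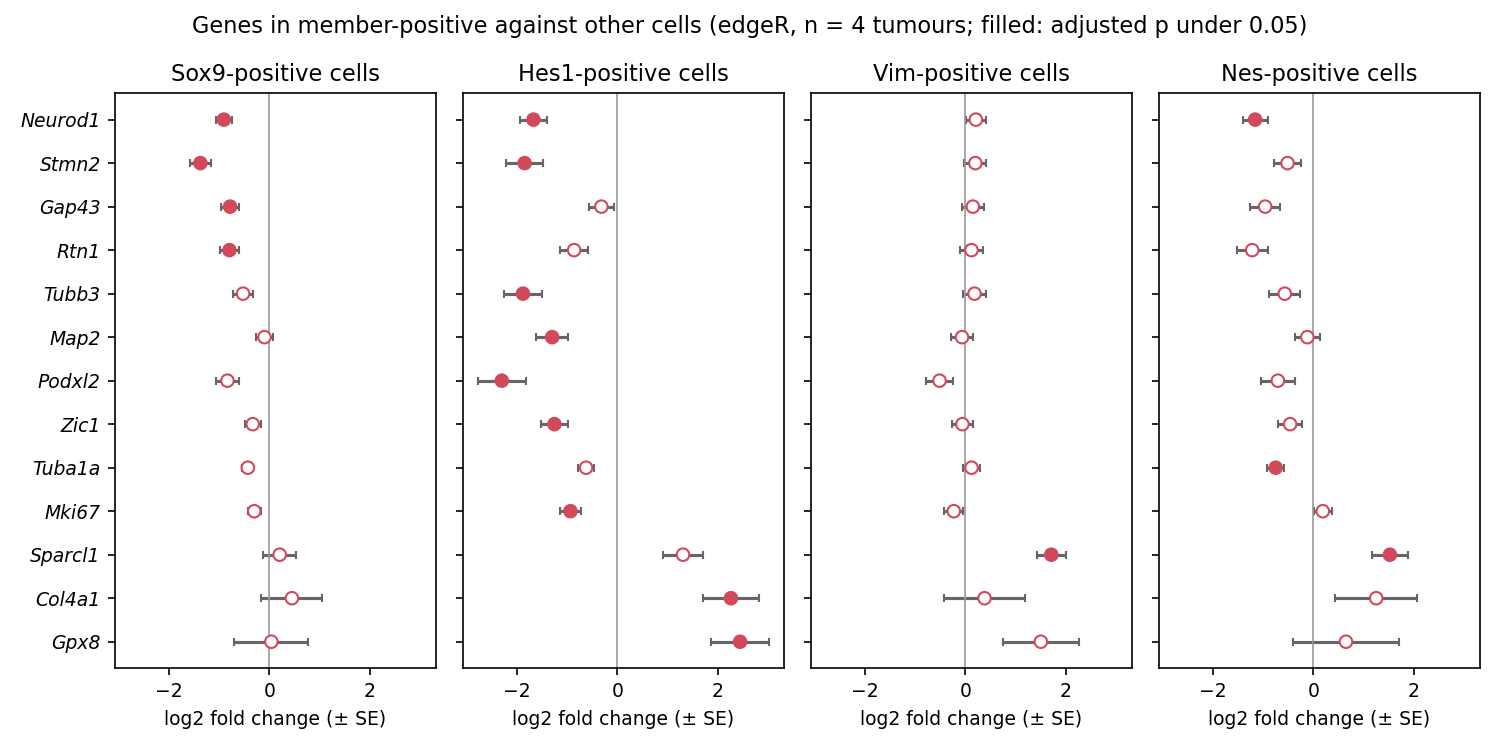
log2 fold change with its SE (horizontal axis) of 13 genes (vertical axis) in Sox9-, Hes1-, Vim- and Nes-positive cells against all other cells, fitted by edgeR over 4 tumours, with filled points past the threshold. Neurod1 lies below 0 in Sox9-, Hes1- and Nes-positive cells and near 0 in Vim-positive cells.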

How the data were processed

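Cells of 4 tumours were profiled by Drop-seq. The deposited tables hold whole-number UMI counts per gene and barcode, not normalized by the authors, per the file values. The submitters' processing notes name STAR and mm10, and other counting settings are not given in the sources used here. A further 6 tables with 11203 cell columns match no sample label and were not used here. The 6 genes and the lists were chosen with earlier results of these data known.

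Barcodes with at least 500 UMIs were kept with no mitochondrial limit. Libraries held 766276, 723661, 528971 and 1253618 UMIs in such cells. Scrublet (scanpy 1.11.5) marked 14 cells (0.435%), which is too few to trust, and doublets were kept. Cells were thinned to 500 UMIs to define positive cells and classes, and summed unthinned counts were tested with edgeR 4.0.16 (R 4.3.3, glmQLFit and glmQLFTest, genes with at least 30 UMIs over the sums, TMM, tumour as block, because each tumour gives a sum to either class). TMM factors were taken from genes with at least 500 UMIs over the sums, a change made after the data were seen because factors from all genes were biased in sparse sums of simulated counts. Genes of the list that sets the classes are left out of counts of calls. Classes come from expression in the same cells, so p-values describe how they differ. The labels do not state how tumours relate to animals, so p-values measure the spread between these samples. The SE was derived from the fitted log2 change and its F statistic. The script was tested on simulated counts. Named genes were the 6 genes, list members called outside their own contrast and, per direction, the 5 largest folds in each positive-cell comparison with adjusted p under 0.05, at least 50 CPM and 1 sign in every tumour. Alternatives, DESeq2 1.42.0 included, are given below. Intervals are exact (95%, Poisson or Clopper-Pearson), and the limit of a count of 0 is 3 counts. Some genes that were tested are not reported here.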

Additional observations from a re-analysis of the deposited data

Results flagged for a closer look

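Of 48 sets of 4 tumour values checked, 3 had a tumour whose gap to the nearest other exceeded Dixon's 95% limit as a share of the whole range, and chance gives about 1 in 20 such sets. All 3 are tumour 4. The share of cells with a thinned Olig2 UMI was 1.20% there, against 0.131%, 0.248% and 0.177%. Olig2 stood at 34.4 CPM in cycling cells of tumour 4, against 8.34, 3.78 and 8.86 CPM. Hes1 stood at 75.8 CPM in its cells without a hedgehog UMI, against 20.2, 29.5 and 20.6 CPM.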

How the results depend on the processing

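Counts of called genes are given for the cell-cycle, hedgehog, granule neuron, Sox9-, Hes1-, Vim- and Nes-positive comparisons, against 1114, 433, 522, 8, 18, 21 and 7 as reported. Without the replicate block (the tumour as a term, which both sums of a tumour share) they were 138, 0, 4, 0, 0, 1 and 0. At an unadjusted p under 0.05 the Sox9-, Hes1- and Nes-positive comparisons still held 313, 508 and 350 genes. DESeq2 called 476, 90, 158, 1, 1, 1 and 1. Leaving out 1 tumour at a time gave 605 to 1084, 177 to 352, 206 to 498, 5 to 8, 4 to 12, 6 to 23 and 2 to 5 calls. Tumours 1 and 2 alone gave 326, 211 and 87 calls for the first 3 comparisons and 4, 3 and 4 for the Sox9-, Hes1- and Nes-positive cells. Tumours 3 and 4 alone gave 207 for hedgehog, 291 for granule neuron and 13, 3 and 2 for Sox9-, Vim- and Nes-positive cells. Positive cells by unthinned UMIs gave 69, 57, 35 and 61 calls (34, 27, 25 and 28 of them higher), and all cells kept gave 13, 47, 54 and 45. The stricter cell filter gave 5, 4 and 3 for Sox9, Vim and Nes, and leaving out the cells of highest depth in each tumour gave 6 for Vim and 4 for Nes. For Vim, no filter on low counts gave 33 calls and leaving out the cell with the most Vim UMIs gave 10. For Nes, TMM factors from all tested genes gave 63. Leaving out Sfrp1 gave 211 hedgehog calls, and limits of 1 and 5 neuron UMIs gave 279 and 1384 granule neuron calls. Reasons for these moves were not tested.

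Scaling moved the split of calls. For the cell cycle it was 508 higher and 606 lower as reported and 663 and 462 with TMM factors from all tested genes. For hedgehog it was 125 and 308, against 176 and 251 by library size alone and 173 and 266 with TMM factors from all tested genes. DESeq2, which changes the test as well as the scaling, gave 279 and 197 for the cell cycle and 121 and 37 for granule neuron, where the split as reported was 339 and 183. With scaling alone changed, the granule neuron split was 372 and 170 by library size and 333 and 193 with TMM factors from all tested genes. TMM factors from all tested genes moved the median log2 fold change over all genes to -0.32, -0.64, -0.42 and -0.74 in Sox9-, Hes1-, Vim- and Nes-positive cells, from -0.04, -0.12, -0.05 and -0.12.

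Of the 6 genes, these log2 fold changes changed sign, none of them called as reported or after the change. In the cell-cycle comparison Sox9 was -0.12 in tumours 1 and 2. Nes was -0.10 without tumour 1 (up to 0.61 with another left out), -0.35 in tumours 3 and 4 and -0.22 with all cells kept. Hes1 was 0.016 without tumour 2 (down to -0.48 with another left out) and 0.16 by S-phase genes alone, and Sox2 was 0.65 in tumours 3 and 4. Olig2 was 0.92 and 0.54 without tumours 2 and 3, 0.019 by library size, 0.086 with TMM factors from all genes, 0.0022 without the cell with the most Vim UMIs, 0.62 in tumours 3 and 4, 1.82 under the stricter filter, 0.043 with all cells kept, 1.31 without the cells of highest depth and 0.20 at a limit of 1 UMI. In the hedgehog comparison Sox9 was -0.051 in tumours 1 and 2, Sox2 was 0.87 without the cells of highest depth and 0.18 without Sfrp1, and Olig2 was -0.25 without Ccnd1 and Mycn. In the granule neuron comparison Nes was 0.36 and Vim 0.19 in tumours 3 and 4, and Vim was 0.13 without tumour 1 (down to -1.13 with another left out). Olig2 was -0.18 without the block, -0.017 and -0.16 without tumours 2 and 3 (0.011 without tumour 1), -0.13 in tumours 3 and 4, -0.17 under the stricter filter and -0.40 without the cells of highest depth. Olig2 gave a value in 17 of 20 cell-cycle, 17 of 19 hedgehog and 15 of 18 granule neuron alternatives. The share of cells with a UMI of any of the 6 genes was 22.9% unthinned and 25.7% when cells were thinned to 1000 UMIs, which leaves shallower cells out, and the other alternatives moved it by less than the SD between tumours. Depth limits every share: a cell without a UMI of a gene is not shown to lack it.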
